A study of Mus musculus with 6 samples.

Results

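The response shared by knockdown of Junb and knockdown of H1f0 was examined in mouse embryonic fibroblasts at the start of cardiac reprogramming. The 4 libraries from cells given an siRNA against Junb (siJunb) or against H1f0 (siH1f0), 2 each, formed one side, and the 2 libraries given a control siRNA (siControl) formed the other. These are all 6 libraries of the series, and 13427 of 24516 genes in the count table passed the expression filter and were tested. All cells came from the iMGT-Myh6-eGFP-MEF line, in which doxycycline (1 ug/mL) switches on the transcription factors Mef2c, Gata4 and Tbx5 (MGT), and which carries an eGFP reporter named for the cardiac myosin gene Myh6. The siRNA was given on the day before doxycycline, so the siControl cells carried the same transgenes, medium and induction as the knockdown cells. The sample labels give harvest at day 1 of induction, whereas the series' own text speaks of day 3 and of sorted GFP-positive cells. There was no library without doxycycline or without siRNA, a single line was used, and the replicates are labelled as biological without saying what was repeated.

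JUNB is a subunit of AP-1, a dimeric transcription factor that fibroblasts use to answer growth factors and stress and that is found at many fibroblast enhancers. H1.0, the product of H1f0, is a linker histone that binds the nucleosome where DNA enters and leaves it and that accumulates in cells that divide slowly or have differentiated. Both are regarded as holding a differentiated cell in its identity, and MEF2C, GATA4 and TBX5 together can push fibroblasts towards a cardiomyocyte-like state. A change found on the side of both knockdowns can belong to either target or to whatever sets the siControl cells apart, and with 1 control siRNA and 2 control libraries these cannot be told apart.

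The libraries held 48690447 to 85979630 counts, and the median tested gene had 1484 to 2682 of them. Levels are given in CPM, counts scaled to a fixed library size by the library total and the TMM factor. The siControl libraries differed from each other by far more than counting noise, so each is also shown apart. Chi-square over its degrees of freedom was 74.6 for the siControl pair, against 3.80 for siJunb and 3.85 for siH1f0. The larger value was not matched by a wider spread of log2 ratios between replicates (SD: siControl 0.312, siJunb 0.317, siH1f0 0.284). Which genes made the chi-square large was not tested. The ribosomal precursor Rn45s made up 1.90% of the counts in siControl 1 and 0.308% to 0.655% in the other 5 libraries. Fibroblast markers were high, with Col1a1 at 1234 to 1406 CPM and Vim at 2541 to 2897 CPM, although Thy1 was at 0 in 5 libraries and at 0.0115 CPM in siControl 1. The cardiomyocyte markers Tnnt2 (94.2 to 108 CPM) and Myh6 (6.28 to 10.9 CPM) were present, and Ryr2 was at or below 0.0607 CPM. Ptprc, Rbfox3, Snap25, Myog, Krt8 and Krt18, which define leukocytes, neurons, skeletal muscle and epithelium, were at 0 in every library. Other genes of those marker lists were present. Cd14 (8.62 to 13.1 CPM), Lyz2 (1.05 to 2.33 CPM) and Cd68 (0.858 to 1.79 CPM) are leukocyte markers, Tubb3 (6.12 to 10.1 CPM) and Map2 (10.06 to 13.5 CPM) neuronal ones and Tnnt3 (0.591 to 1.16 CPM) a skeletal muscle one, and their part in the results was not tested.

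The siRNA targets show what pooling does. Junb measured 39.1 and 35.7 CPM in siControl, against 10.7 and 8.90 in siJunb and 29.98 and 31.1 in siH1f0. H1f0 had 798 and 743 CPM in the siControl libraries, 666 and 651 CPM with siJunb and 51.6 and 54.4 CPM with siH1f0. Each target was lowest where it was targeted and lay below both siControl libraries in the other knockdown as well. As one side, the 4 knockdown libraries therefore held 20.2 ± 12.03 CPM of Junb and 356 ± 350 CPM of H1f0 (SD, n = 4), a spread close in size to the difference from siControl, at 37.4 and 770.5 CPM.

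A single gene passed the test of the pooled knockdowns against siControl in the fit that treats the 4 libraries as replicates of one condition. This fit (edgeR's quasi-likelihood F test with 1 term for the side, 4 residual degrees of freedom) counts the difference between the knockdowns as error. At a Benjamini-Hochberg adjusted p under 0.05 it called 1 of 13427 genes (0.00745%), while 1107 genes had an unadjusted p under 0.05. The gene was Cdsn, which encodes corneodesmosin, an adhesive protein of the cornified skin layer. Cdsn stood at 9.08 and 9.0 CPM in siControl, at 3.12 and 3.01 in siJunb and at 3.44 and 3.31 in siH1f0. The 4 knockdown libraries lay within a narrow band far below both siControl libraries, which were nearly equal. Cdsn fell by 1.49 ± 0.11 on the log2 scale (SE; edgeR adjusted p = 0.0120). The call was lost without siControl 1 (adjusted p = 0.582), without siControl 2 (0.104) and without siJunb 1 (0.0582), while the change stayed between -1.46 and -1.52 in the 6 fits that leave out 1 library.

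Cdsn lies on chromosome 17 from 35543101 to 35557180 (GRCm38.p6). The 250 bases before its start site in RefSeq are shown because it was the only gene called in this fit; capitals would mark an AP-1, CRE, MEF2, GATA or TATA motif, spelled out further on, and there are none in this window.
Cdsn, chr17:35542851-35543100, plus strand: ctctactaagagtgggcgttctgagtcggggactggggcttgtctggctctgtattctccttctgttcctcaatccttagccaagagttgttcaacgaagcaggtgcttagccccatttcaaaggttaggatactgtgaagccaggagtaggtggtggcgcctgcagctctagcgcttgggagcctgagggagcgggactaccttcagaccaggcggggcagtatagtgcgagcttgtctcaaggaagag

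A second fit kept siJunb and siH1f0 as separate groups and tested the mean of their changes against siControl (3 residual degrees of freedom). Here the difference between the knockdowns is not error, and the contrast called 735 genes (5.47%), 294 higher (2.19%) and 441 lower (3.28%), with 3137 at an unadjusted p under 0.05. Below, "rose" and "fell" refer to this averaged contrast unless another fit is named. Of the 735 genes, 21 rose and 83 fell by at least 1.5-fold. The number depended on the libraries. It was 2838 without siControl 1 and 4914 without siControl 2, and 132, 110, 127 and 126 without siJunb 1, siJunb 2, siH1f0 1 and siH1f0 2. When a siControl library is left out, its spread from the other no longer counts as error. With the replicate number as a block 393 genes were called.

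An averaged contrast can be passed by a gene that moved in only 1 knockdown. A called gene was therefore said to have a like change where all 4 knockdown libraries lay on one side of both siControl libraries, both knockdowns changed in the same direction, and the smaller log2 change was at least 0.5 of the larger. There were 279 such genes (2.08%), 121 higher (0.901%) and 158 lower (1.18%), 9 and 44 of them by at least 1.5-fold. Their median change was 0.26 for the higher genes and -0.40 for the lower genes, so the shared changes were mostly small. The direct test of siH1f0 against siJunb compares the knockdowns only, with a spread estimated from all 6 libraries, siControl included. It called 20 of the 279 genes, against 3484 of all genes tested (25.9%). The rule itself limits this difference, so the count is a description and nothing is read from it. The other 456 called genes did not meet the rule. In 107 called genes the knockdowns lay on opposite sides of siControl, and in 348 the smaller change had the same sign but was under 0.5 of the larger. Changes in both knockdowns are measured against the same 2 siControl libraries, so their values are given side by side and not as independent evidence.

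**Figure D1:**
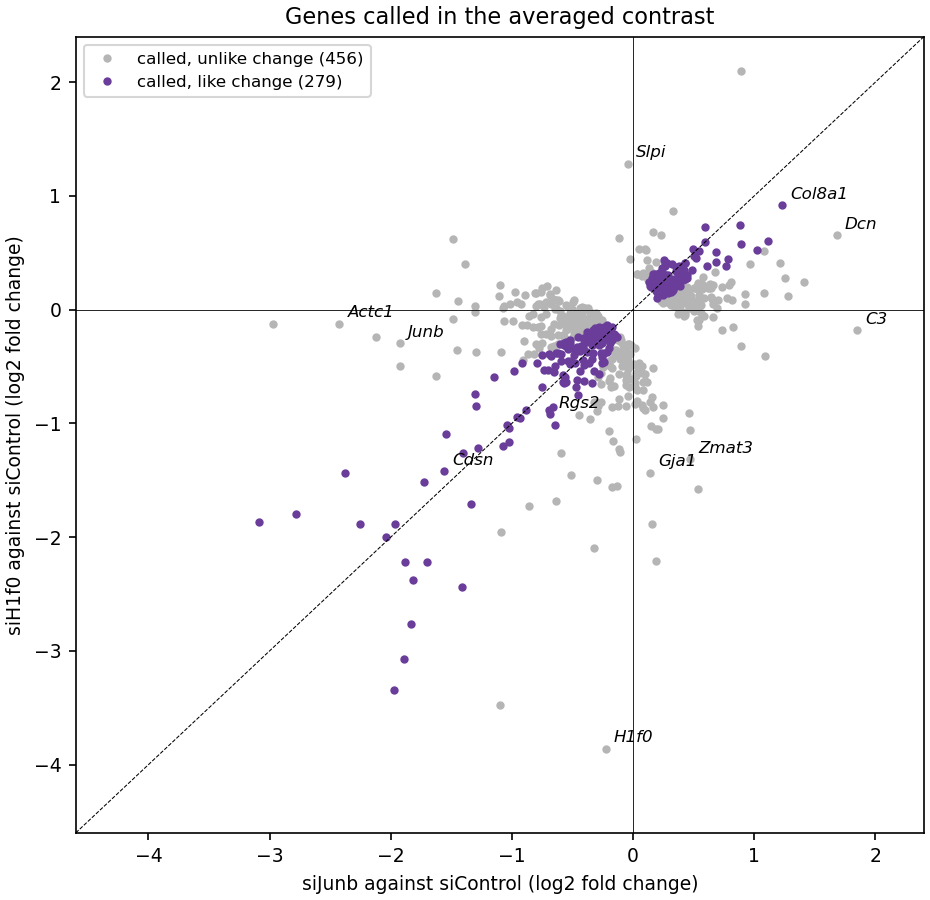
The log2 fold change against siControl in siJunb (x axis) and siH1f0 (y axis) for the 735 genes called in the averaged contrast, each point a gene; purple points are the 279 genes with a like change and grey points the other 456, and the dashed line marks equal change. Cdsn and Col8a1 lie near the line, whereas H1f0, Junb, Actc1, C3, Slpi, Gja1 and Zmat3 lie near or across an axis.

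Among the like-higher genes with a mean of at least 5 CPM, Col8a1 had the largest change. It encodes a short-chain collagen of basement membranes and vessel walls. Col8a1 measured 13.2 and 15.1 CPM in siControl, against 33.98 and 32.04 in siJunb and 27.4 and 25.95 in siH1f0. All 4 knockdown libraries lay well above both siControl libraries, and siJunb lay above siH1f0. It rose by 1.07 ± 0.07 on the log2 scale (SE; edgeR adjusted p = 2.54e-04), by 1.23 in siJunb and 0.92 in siH1f0, and the knockdowns differed from each other (adjusted p = 0.0190). In the fit with 1 side its adjusted p was 0.114, and over the 23 genes other than Cdsn with the largest like changes it was 0.114 to 0.548. Against siControl 1 the difference was 1.17 and against siControl 2 it was 0.98. Col8a1 lies on chromosome 16 from 57624256 to 57754737, and the 250 bases before its start hold none of the motifs searched.
Col8a1, chr16:57754738-57754987, minus strand: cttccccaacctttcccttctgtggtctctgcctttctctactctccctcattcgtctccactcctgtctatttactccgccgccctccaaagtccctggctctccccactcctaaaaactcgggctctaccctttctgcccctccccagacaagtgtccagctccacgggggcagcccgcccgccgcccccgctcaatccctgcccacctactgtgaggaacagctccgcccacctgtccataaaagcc

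Rab27a, Sfrp1 and Ghr were among the other 11 of the 12 largest like rises. Rab27a, a small GTPase of vesicle secretion, had 10.8 and 10.7 CPM in the siControl libraries, 17.1 and 17.6 CPM with siJunb and 14.3 and 16.3 CPM with siH1f0. Sfrp1, a secreted Wnt antagonist, stood at 61.9 and 73.1 CPM in siControl, at 108 and 109 in siJunb and at 90.9 and 89.9 in siH1f0. Ghr, the growth hormone receptor, measured 83.5 and 94.03 CPM in siControl, against 128 and 128 in siJunb and 121 and 123 in siH1f0. In each of these 3 genes the knockdown libraries were all above siControl. The siControl libraries of Rab27a were nearly equal, whereas in Sfrp1 and Ghr siControl 1 was the lower. Rab27a rose by 0.59 ± 0.07 (SE; adjusted p = 0.00392), Sfrp1 by 0.55 ± 0.07 (0.00320) and Ghr by 0.49 ± 0.05 (0.00241) on the log2 scale.

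Atp10d, a phospholipid flippase, had 26.1 and 28.6 CPM in the siControl libraries, 46.3 and 47.7 CPM with siJunb and 38.9 and 35.5 CPM with siH1f0, and rose by 0.61 ± 0.06 on the log2 scale (SE; edgeR adjusted p = 0.00160). Apbb1ip, an adaptor that links Rap1 to integrin activation, was at 10.6 and 10.05 CPM in siControl and between 14.5 and 15.2 CPM in the 4 knockdown libraries. It rose by 0.53 ± 0.07 (adjusted p = 0.00424). Its changes in siJunb (0.54) and siH1f0 (0.51) were close. Carnmt1, the methyltransferase that makes anserine from carnosine, rose by 0.50 ± 0.06 (adjusted p = 0.00421), from 12.04 and 11.7 CPM in siControl to 15.2 to 18.1 CPM in the knockdowns. Cntnap1, a contactin-associated adhesion protein, rose by 0.49 ± 0.06 (adjusted p = 0.00519), from 17.2 and 17.4 CPM to 23.2 to 25.7 CPM. These 4 genes, with Col8a1, Rab27a, Sfrp1 and Ghr, are the 8 genes with a like rise whose call held without each of the 6 libraries in turn. A fit without a siControl library has no spread between controls left. A call kept in such a fit therefore does not test dependence on a control library.

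The remaining 4 of the 12 largest like rises lost their call without any 1 of the 4 knockdown libraries. Abca8b, a lipid transporter, was at 3.78 and 5.27 CPM in siControl and 7.36 to 8.33 CPM in the knockdowns, a change of 0.81 ± 0.13 (SE; adjusted p = 0.0128, and 0.0603 to 0.0688 without a knockdown library). Mme, the membrane peptidase neprilysin, was at 20.9 and 27.9 CPM in siControl and 30.8 to 42.4 CPM in the knockdowns (0.58 ± 0.10, adjusted p = 0.0178, and 0.0629 to 0.0951). Hopx, a small homeodomain protein of the heart, was at 5.27 and 5.37 CPM in siControl and 7.17 to 8.21 CPM in the knockdowns (0.51 ± 0.09, adjusted p = 0.0189, and 0.0525 to 0.0974). In Hopx the siControl libraries were close together, while in Abca8b and Mme siControl 1 was the lower of the pair.

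For Dhrs9, a retinol dehydrogenase, the size of the change depended on the control library. It stood at 33.03 and 47.5 CPM in siControl, at 61.1 and 60.0 in siJunb and at 60.97 and 60.1 in siH1f0. The 4 knockdown libraries were almost equal, and the spread lay between the siControl libraries. The difference was 0.87 on the log2 scale against siControl 1 and 0.35 against siControl 2, and the averaged contrast gave 0.59 ± 0.12 (SE; adjusted p = 0.0283, and 0.103 to 0.120 without a knockdown library). Dhrs9 lies on chromosome 2 from 69380462 to 69403086 and shares its whole span with the lncRNA gene Gm36393, whose reads could not be separated without a stated strand setting. Its upstream window is shown because, of the 4 windows printed, it alone holds the AP-1 letters. Capitals mark TGANTCA, 18 bases before the start, and 2 overlapping TATAAA matches on opposite strands, from 124 and 122 bases before it.
Dhrs9, chr2:69380212-69380461, plus strand: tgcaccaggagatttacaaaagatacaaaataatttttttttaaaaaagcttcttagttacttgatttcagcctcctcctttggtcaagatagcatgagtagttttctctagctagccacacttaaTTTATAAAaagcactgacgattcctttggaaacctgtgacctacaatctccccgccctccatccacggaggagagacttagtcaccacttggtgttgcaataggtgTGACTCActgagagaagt

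**Figure D2:**
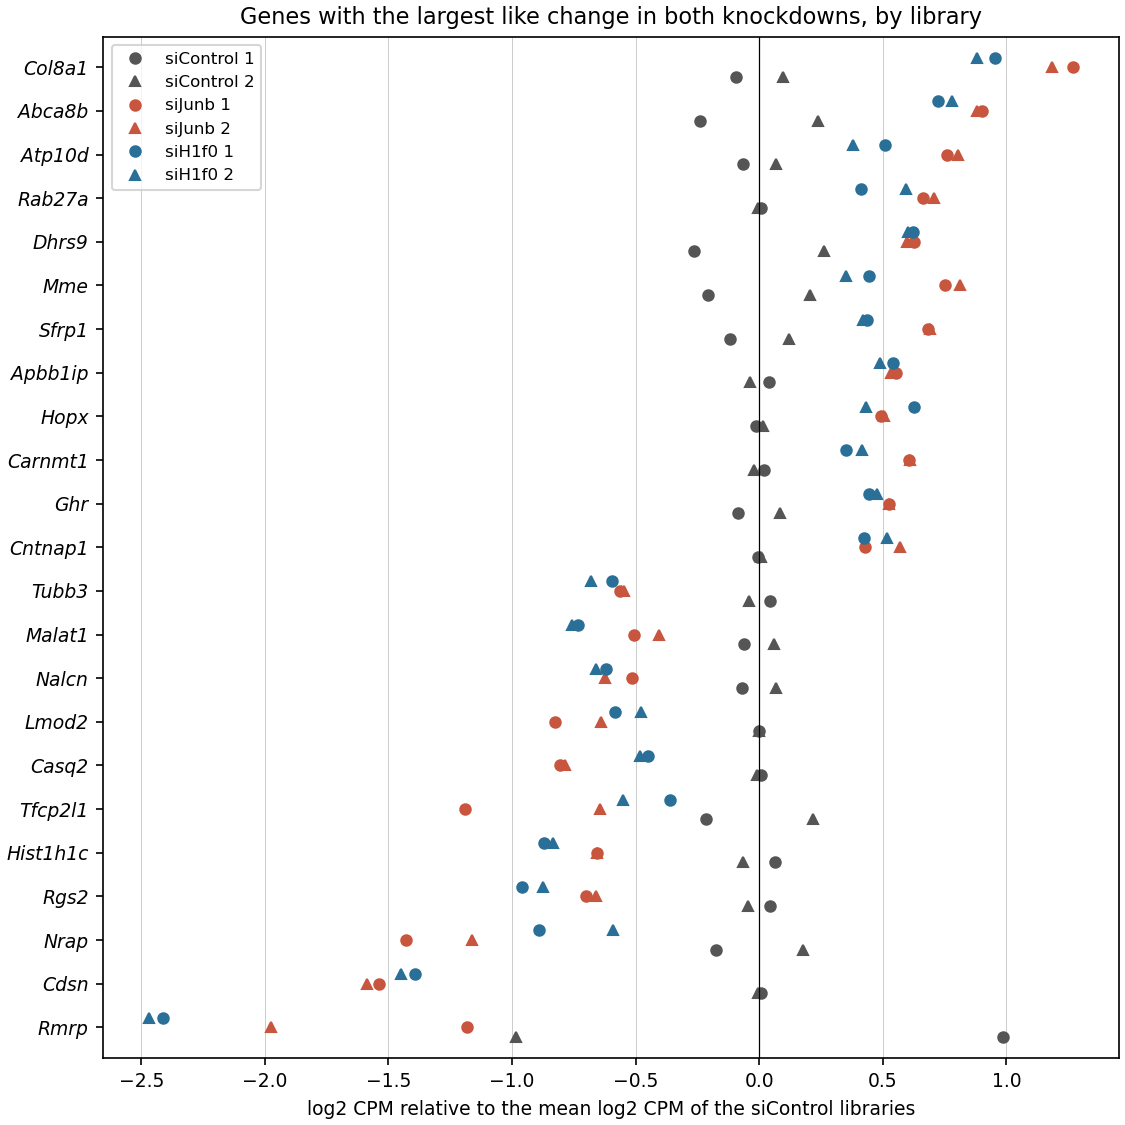
Each library's log2 CPM relative to the mean of the siControl libraries (x axis) for the 12 genes with the largest like rise and 11 of the 12 with the largest like fall (rows); grey, red and blue mark siControl, siJunb and siH1f0, and circles and triangles mark replicates 1 and 2. In every row the 4 knockdown points lie beyond both siControl points, a condition of the rule; the siControl points nearly coincide for Cdsn and Lmod2 and lie far apart for Rmrp, at 26.04 and 6.65 CPM.

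Nrap, Casq2 and Lmod2, genes of heart muscle, were among the 12 largest like falls. Nrap, an anchoring protein of the cardiac intercalated disc, measured 6.71 and 8.56 CPM in siControl, against 2.81 and 3.39 in siJunb and 4.09 and 5.03 in siH1f0. It fell by 1.02 ± 0.14 on the log2 scale (SE; edgeR adjusted p = 0.00603), more in siJunb (-1.30) than in siH1f0 (-0.74; adjusted p = 0.0451 for the difference). Casq2, the calcium store protein of the cardiac sarcoplasmic reticulum, had 52.4 and 51.8 CPM in the siControl libraries, 29.8 and 30.2 CPM with siJunb and 38.1 and 37.3 CPM with siH1f0. It fell by 0.63 ± 0.04 (adjusted p = 3.55e-04), also more in siJunb (adjusted p = 0.00283 for the difference). Lmod2, the actin filament nucleator of cardiac thin filaments, stood at 14.2 and 14.2 CPM in siControl, at 8.02 and 9.13 in siJunb and at 9.49 and 10.2 in siH1f0. It fell by 0.63 ± 0.08 (adjusted p = 0.00380). In these 3 genes siJunb held the lower levels, and no library of either knockdown reached siControl.

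Rgs2, which shortens Gq signalling, measured 55.4 and 52.1 CPM in siControl, against 33.1 and 33.99 in siJunb and 27.7 and 29.3 in siH1f0. It fell by 0.80 ± 0.05 on the log2 scale (SE; adjusted p = 2.54e-04), and here siH1f0 was the lower (adjusted p = 0.0250 for the difference). Nalcn, the sodium leak channel, fell by 0.60 ± 0.06 (adjusted p = 0.00153), from 31.5 and 34.6 CPM to 20.9 to 23.1 CPM. Tubb3, a beta-tubulin, fell by 0.60 ± 0.08 (adjusted p = 0.00525), from 10.1 and 9.53 CPM to 6.12 to 6.72 CPM. The direct test of the knockdowns did not call Nalcn and Tubb3 (adjusted p = 0.504 and 0.569), with log2 differences of siH1f0 from siJunb of -0.07 and -0.08.

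Other shared falls were in a histone gene and in noncoding RNAs. Hist1h1c encodes linker histone H1.2. It had 39.5 and 36.2 CPM in the siControl libraries, 24.01 and 23.99 CPM with siJunb and 20.7 and 21.2 CPM with siH1f0, and fell by 0.76 ± 0.05 on the log2 scale (SE; adjusted p = 3.63e-04). Malat1, a nuclear long noncoding RNA, stood at 1518 and 1652 CPM in siControl, at 1115 and 1195 in siJunb and at 953 and 937 in siH1f0, and fell by 0.60 ± 0.05 (adjusted p = 5.55e-04). Both were lowest in siH1f0, and in both the siControl pair was much closer together than the distance to the knockdowns. Rmrp, the RNA of RNase MRP, had the largest fall of the 12 (-2.30 ± 0.44, adjusted p = 0.0239, and 0.0815 to 0.115 without a knockdown library). It measured 26.04 and 6.65 CPM in siControl, against 5.80 and 3.35 in siJunb and 2.48 and 2.38 in siH1f0. SiControl 2 lay close to siJunb 1, and most of the difference came from siControl 1, against which it was -2.99, while it was -1.02 against siControl 2. Tfcp2l1, a grainyhead-like factor, fell by 0.69 ± 0.16 (adjusted p = 0.0484) and was not called without any 1 knockdown library (0.0675 to 0.166), or among genes with a mean of at least 5 CPM (0.0508).

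Of the 158 genes with a like fall, 24 were called without each of the 6 libraries in turn. Here too, the fits without a siControl library do not test dependence on that library. They include Cdsn, Nrap, Rgs2, Hist1h1c, Casq2, Lmod2, Nalcn, Malat1 and Tubb3, described above. Rhox5, a homeobox gene of the X-linked reproductive cluster, fell by 1.52 ± 0.15 on the log2 scale (SE; edgeR adjusted p = 0.00159), from 3.66 and 3.02 CPM in siControl to 0.928 to 1.39 CPM in the knockdowns. P2rx7, an ATP-gated ion channel, fell by 1.09 ± 0.12 (adjusted p = 0.00226), from 4.13 and 4.33 CPM to 1.81 to 2.21 CPM. Xirp1, an actin-binding protein of the intercalated disc, fell by 1.32 ± 0.19 (adjusted p = 0.00730), from 2.44 and 3.10 CPM to 0.911 to 1.51 CPM. They also include the 11 genes Atf1, Hbegf, Mustn1, Snhg5, Pmp22, Olfml2b, Snx18, Hmgcs1, Rtn4, Rnf166 and Hnrnpd. Their changes ran from -0.57 in Atf1, a cAMP-responsive factor, and in Hbegf, a ligand of the EGF receptor, to -0.33 in Hnrnpd. Rhox5, P2rx7, Xirp1 and the 11 were listed here for this stability, after their values were seen.

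Lmod2, Xirp1, Myoz2 and Actc1 were among the sarcomere genes that fell. Of 26 sarcomere genes 22 were tested, and 0 rose and 8 fell, beside 2.19% higher and 3.28% lower over all genes tested. Their median change was -0.21, beside -0.00087 over all genes. The median was -0.28 against siControl 1 and -0.19 against siControl 2. By knockdown, the median was -0.45 in siJunb and -0.09 in siH1f0. The direct test of siH1f0 against siJunb called 15 of the 22 genes, beside 25.9% of all genes tested. Only 3 of the 8, Lmod2, Xirp1 and Myoz2, had a like change. Myoz2, a Z-disc protein that binds calcineurin, had 12.5 and 11.1 CPM in the siControl libraries, 7.18 and 8.66 CPM with siJunb and 7.48 and 8.38 CPM with siH1f0. It fell by 0.58 ± 0.10 on the log2 scale (SE; adjusted p = 0.0167, and up to 0.0914 with 1 library left out), by nearly the same amount in siJunb (-0.58) and siH1f0 (-0.57). The other 5, among them Actc1, Myl7, Myom2 and Cryab, did not meet the rule for a like change. Actc1, cardiac actin, stood at 22.2 and 19.7 CPM in siControl, at 3.79 and 4.02 in siJunb and at 18.4 and 20.01 in siH1f0, so its averaged change of -1.27 stood for -2.43 in siJunb and -0.12 in siH1f0. The siH1f0 libraries of Actc1 overlapped siControl.

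The window upstream of Myoz2 (gene on chromosome 3, start site at the right end of the window) is shown as that of a sarcomere gene with nearly equal falls. Capitals mark the MEF2 letters, CTA and TAG with any 4 bases between them, which begin 33 bases before the start.
Myoz2, chr3:123034988-123035237, minus strand: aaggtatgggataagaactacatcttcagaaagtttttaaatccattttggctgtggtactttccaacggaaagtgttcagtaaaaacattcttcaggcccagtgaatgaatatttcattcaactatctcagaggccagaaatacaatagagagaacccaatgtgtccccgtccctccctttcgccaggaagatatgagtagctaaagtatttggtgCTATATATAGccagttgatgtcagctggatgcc

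The letters were also counted over all windows, on both strands, from 250 bases before to 50 after the start. The AP-1 letters TGANTCA were in 5.05% of the windows of the 10214 tested genes that have one, in 6.0% of 100 windows of like-higher genes and in 7.08% of 113 windows of like-lower genes. The MEF2 letters were in 3.04%, 3.0% and 4.42%, in the same order. The shares were 3.33%, 4.0% and 2.65% for the CRE letters TGACGTCA, 5.97%, 5.0% and 5.31% for the GATA letters AGATAA, and 6.97%, 4.0% and 7.96% for TATAAA. Each count among the like genes was between 3 and 9 windows, so these shares are imprecise. Their differences from the shares of all windows were not tested.

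Casq2, Gja1 and Hopx were the genes called among those of cardiac calcium handling and the endogenous cardiac transcription factors. Of 8 tested genes of calcium handling and natriuretic peptides 0 rose and 2 fell, beside 2.19% and 3.28% of all genes tested, with a median of 0.13 (0.24 against siControl 1 and -0.0074 against siControl 2). Casq2 fell in both knockdowns, whereas Gja1, connexin 43, measured 98.5 and 108 CPM in siControl, against 111 and 116 in siJunb and 38.98 and 37.4 in siH1f0. Its averaged fall of 0.65 stood for 0.14 in siJunb and -1.43 in siH1f0. Of 7 tested endogenous cardiac transcription factors 1 rose, Hopx, and 0 fell.

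The induced factors were called in neither fit. Mef2c had 354 and 709 CPM in the siControl libraries, 752 and 729 CPM with siJunb and 793 and 714 CPM with siH1f0. Gata4 was at 844 and 1411 CPM in siControl and 1343 to 1480 CPM in the 4 knockdown libraries. Tbx5 was at 1858 and 2554 CPM in siControl and 2390 to 2620 CPM in the knockdowns. In all 3, siControl 1 stood alone below the other 5 libraries. The 4 knockdown libraries differed from siControl 1 by 1.08, 0.73 and 0.42 on the log2 scale and from siControl 2 by 0.07, -0.01 and -0.04 for Mef2c, Gata4 and Tbx5. The averaged contrast gave 0.49 ± 0.22, 0.31 ± 0.16 and 0.17 ± 0.10 (SE; adjusted p = 0.214, 0.280 and 0.363). Without siControl 2 all 3 were called as higher (adjusted p = 5.01e-31, 9.85e-27 and 2.19e-18), and without siControl 1 Gata4 and Tbx5 turned to -0.0096 and -0.043. The deposited counts do not separate the transgenes from the endogenous genes.

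**Figure D3:**
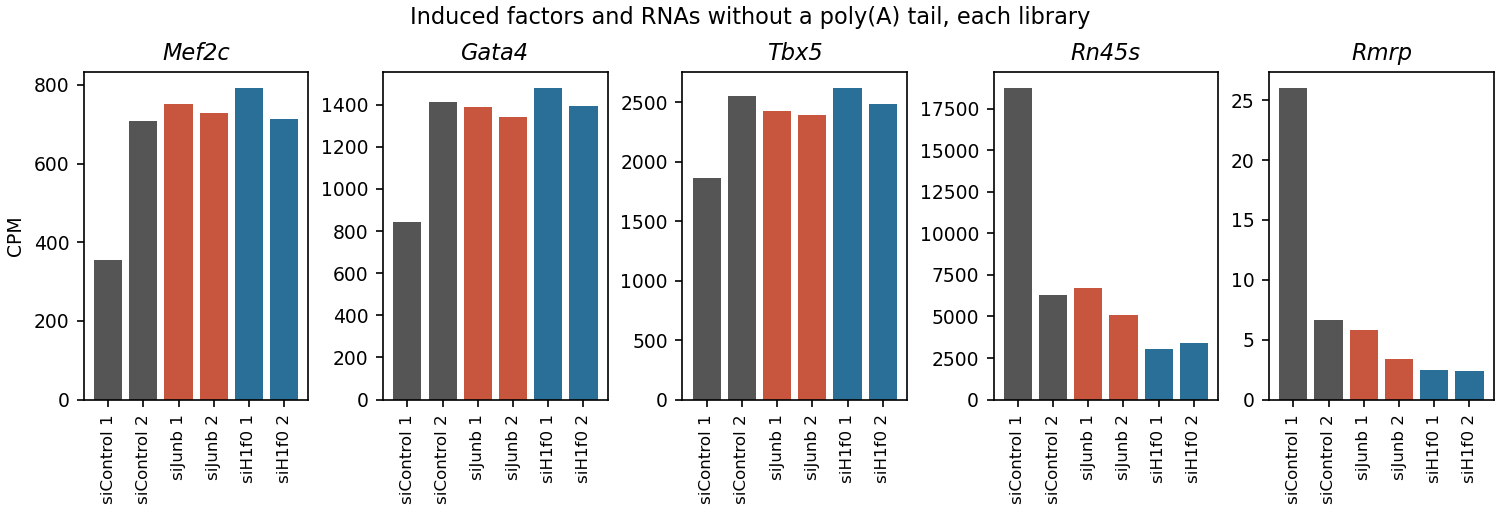
CPM (y axes, from 0, each panel on its own scale) of the induced factors Mef2c, Gata4 and Tbx5 and of the RNAs Rn45s and Rmrp in each of the 6 libraries, siControl in grey, siJunb in red and siH1f0 in blue. SiControl 1 is the lowest library for the factors (Mef2c 354 CPM) and the highest for Rn45s (18761 CPM) and Rmrp (26.04 CPM).

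RNAs that end without a poly(A) tail were mostly highest in that same library. Of 20 such RNAs listed, 11 were in the table and 7 were tested, of which 0 rose and 6 fell, beside 2.19% higher and 3.28% lower over all genes tested. The 6 were highest in siControl 1, and Terc, the telomerase RNA, was not. Rn45s stood at 18761 and 6287 CPM in siControl, at 6685 and 5082 in siJunb and at 3041 and 3424 in siH1f0. SiControl 2 lay below siJunb 1, so the groups overlapped, although the averaged contrast called a fall of 1.52 ± 0.32 (SE; adjusted p = 0.0328). Rpph1, the RNA of RNase P, measured 15.7 and 3.95 CPM in siControl, against 3.07 and 2.24 in siJunb and 0.997 and 1.36 in siH1f0. The median of the 7 was -2.45 against siControl 1 and -1.03 against siControl 2. Together the RNAs on this list summed to 18867 and 6325 CPM in siControl, 5112 to 6726 CPM in siJunb and 3057 to 3443 CPM in siH1f0, and the part of this difference between libraries in the other results was not tested.

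Among histone genes every call was a fall. Of 24 core histone cluster genes 18 were tested, and 0 rose and 7 fell, beside 2.19% higher and 3.28% lower over all genes tested. The median tested member had 0.373 CPM, and members that low can pass the filter through the siControl libraries alone, so the count describes the genes that were measured and no more. Hist1h2bc, which is also expressed outside S phase, had 5.61 and 4.69 CPM in the siControl libraries, 3.23 and 3.14 CPM with siJunb and 2.48 and 3.13 CPM with siH1f0. All 4 knockdown libraries lay below siControl, with a change of -0.79 ± 0.13 (SE; adjusted p = 0.0134), a call lost without siJunb 1, siJunb 2 or siH1f0 1 (0.0674 to 0.0741). Of 7 tested linker histones 0 rose and 3 fell, H1f0, Hist1h1c and Hist1h1e (adjusted p = 0.0456, and 0.140 to 0.171 without siControl 1 or any 1 knockdown library), and of 9 tested histone variants, whose transcripts are polyadenylated, 0 were called by edgeR (4 at an unadjusted p under 0.05). Among the S phase genes 0 of 25 were called (9 at an unadjusted p under 0.05). Cluster genes have near-identical copies, between which reads may have been split.

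The fibroblast matrix genes held calls in both directions. Of 34 genes 30 were tested, and 5 rose and 2 fell, beside 2.19% higher and 3.28% lower over all genes tested, with a median of 0.10. The 5 that rose were Col8a1, Dcn, Tnc, Bgn and Fbn1. Dcn, the proteoglycan decorin, stood at 5.21 and 4.27 CPM in siControl, at 15.1 and 15.5 in siJunb and at 7.43 and 7.56 in siH1f0. It was above siControl in all 4 libraries, but the rise of 1.68 in siJunb and 0.65 in siH1f0 differed (adjusted p = 2.98e-04). Fbn1, fibrillin-1, rose alike in siJunb (0.32) and siH1f0 (0.40; averaged adjusted p = 0.0451, and up to 0.177 with 1 library left out). Loxl1, an enzyme that crosslinks elastin, measured 77.8 and 76.1 CPM in siControl, against 60.6 and 55.1 in siJunb and 63.2 and 57.8 in siH1f0, and fell by 0.38 ± 0.06 (SE; adjusted p = 0.00935, and 0.0593 and 0.0661 without siJunb 2 and siH1f0 2). Thbs2 fell on average but lay below siControl in siJunb only.

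Acta2 and Cnn3 were called among the smooth muscle genes, and Tgfbr3 and Ltbp2 among those of the TGF-beta response. Of 21 tested contractile genes 1 rose, Acta2, and 1 fell, Cnn3, beside 2.19% higher and 3.28% lower over all genes tested. Acta2, smooth muscle actin, had 63.1 and 58.1 CPM in the siControl libraries, 75.3 and 77.1 CPM with siJunb and 109 and 112 CPM with siH1f0, in that order without overlap. Its rise of 0.33 in siJunb and 0.87 in siH1f0 differed (adjusted p = 3.38e-04). Of 21 TGF-beta response genes 2 rose, Tgfbr3 and Ltbp2, and 0 fell. Ltbp2 changed by 0.64 in siJunb and 0.11 in siH1f0, and Cnn3 by -0.30 and -0.05. Neither Ltbp2 nor Cnn3 had a like change, and both calls were lost without any 1 knockdown library. Tgfbr3, the co-receptor betaglycan, was at 139 and 162 CPM in siControl and 180 to 203 CPM in the knockdowns (0.35 ± 0.06, SE; adjusted p = 0.0167, and 0.0788 to 0.0975 without a knockdown library).

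Jund and the target Junb were called in the AP-1 family. Of 17 tested members 0 rose and 3 fell, beside 2.19% higher and 3.28% lower over all genes tested. Among the 3 were Junb and Jund. Jund stood at 216 and 185 CPM in siControl, at 151 and 141 in siJunb and at 180 and 177 in siH1f0. Its averaged change of -0.31 ± 0.06 (SE; adjusted p = 0.0277, and 0.100 to 0.145 without a knockdown library) came to -0.46 in siJunb and -0.17 in siH1f0. Of 17 immediate early genes outside AP-1, 3 rose (Nr4a1, Klf10 and Klf2) and 1 fell (Myc). Klf10, a TGF-beta inducible zinc finger factor, was at 42.99 and 42.1 CPM in siControl and 49.4 to 53.6 CPM in the knockdowns, with 0.24 in siJunb and 0.33 in siH1f0, and was the 1 gene of these 4 with a like change. Its call was lost without any 1 knockdown library (adjusted p 0.0729 to 0.0933), as were those of Nr4a1 (0.0635 to 0.0860) and Klf2 (0.0504 to 0.0827).

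Sterol synthesis genes fell where they were called. Of 27 cholesterol and fatty acid synthesis genes 0 rose and 6 fell, beside 2.19% higher and 3.28% lower over all genes tested, with a median of -0.076. Among the 6 were Hmgcs1, Srebf2, Sqle, Insig1 and Fdps, all of these targets or members of the SREBP2 pathway. Hmgcs1, which makes HMG-CoA, measured 63.4 and 62.5 CPM in siControl, against 49.03 and 51.6 in siJunb and 44.3 and 42.6 in siH1f0. It fell by 0.43 ± 0.05 on the log2 scale (SE; adjusted p = 0.00223), a call that held without each library in turn. Fdps fell alike in siJunb (-0.27) and siH1f0 (-0.30). In Srebf2 and Sqle the change lay in siH1f0 (-0.45 and -0.42) with -0.04 and -0.07 in siJunb, and in Insig1 it lay in siJunb (-0.46, against -0.07). The calls of Srebf2 and Sqle were lost without any 1 knockdown library, and only 2 of the 6 genes had a like change.

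The p53 list held 4 falls of 24 genes and 0 rises, beside 2.19% higher and 3.28% lower over all genes tested. The knockdowns moved this list in opposite directions, with a median of 0.27 in siJunb and -0.23 in siH1f0. The direct test of siH1f0 against siJunb called 19 of the 24, beside 25.9% of all genes tested. Plk2, a polo-like kinase, had 170 and 166 CPM in the siControl libraries, 133 and 132 CPM with siJunb and 143 and 145 CPM with siH1f0, and fell by 0.28 ± 0.04 (SE; adjusted p = 0.00664, and 0.0595 to 0.0718 without a knockdown library). Gadd45a also had a like fall (-0.33 in siJunb and -0.18 in siH1f0). Zmat3 stood at 54.6 and 57.2 CPM in siControl, at 76.2 and 78.9 in siJunb and at 23.5 and 21.5 in siH1f0. Its averaged fall of 0.42 describes neither knockdown, since siJunb lay above siControl and siH1f0 below it. Cdkn1a measured 325 and 304 CPM in siControl, against 336 and 328 in siJunb and 221 and 226 in siH1f0. Its averaged fall lay in siH1f0, and the call was lost without any 1 knockdown library.

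In the inflammatory lists the average hid unlike changes. Of 22 tested NF-kB genes 3 rose (C3, Slpi and Csf1) and 2 fell (Saa3 and Nfkbia), beside 2.19% higher and 3.28% lower over all genes tested, and 0 of the 5 had a like change. C3, the central complement component, had 13.7 and 14.2 CPM in the siControl libraries, 50.8 and 49.4 CPM with siJunb and 13.3 and 11.3 CPM with siH1f0. Slpi, a secreted protease inhibitor, stood at 49.03 and 43.6 CPM in siControl, at 44.5 and 45.4 in siJunb and at 115 and 111 in siH1f0. Each lay far above siControl in 1 knockdown only. Of 32 interferon-stimulated and RNA-sensing genes 2 rose (Stat2 and Usp18) and 1 fell (Irf1), with 0 like changes, and of 14 genes of the RNA interference machinery 1 fell (Tnrc6c).

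The shares to set the growth and housekeeping lists against are again 2.19% higher and 3.28% lower over all genes tested. Of 25 G2/M genes 1 fell (Ube2c), and of 12 D cyclins and inhibitors 2 rose (Ccnd1 and Cdkn1b). Ccnd1 measured 9.61 and 8.46 CPM in siControl, against 19.1 and 19.4 in siJunb and 6.61 and 7.05 in siH1f0, so that its averaged rise of 0.34 stood for 1.09 in siJunb and -0.41 in siH1f0. Of 51 oxidative phosphorylation genes 1 fell, Ndufa4, with 0.08 in siJunb and -0.64 in siH1f0. Of 51 tested cytosolic ribosomal protein genes 1 fell, Rpl4, from 971 and 921 CPM to 476 and 476 CPM in siJunb, with 878 and 884 CPM in siH1f0. Of 26 glycolysis and hypoxia genes 4 rose (Pgam1, Aldoa, Pkm and Ldha) and 2 fell (Egln3 and Vegfa), of which Pkm alone had a like change. Of 23 genes of the integrated and unfolded protein stress responses Chac1 rose and Slc7a5 fell. Of 26 polycomb and other chromatin genes 0 rose and Kmt2d and Hmgb1 fell. Besides that of Kmt2d, the calls of Ube2c, Ccnd1, Cdkn1b, Ndufa4, Pgam1, Vegfa, Chac1, Slc7a5 and Hmgb1 were lost without any 1 knockdown library. Kmt2d, a histone H3 methyltransferase of enhancers, was at 153 and 144 CPM in siControl and 118 to 123 CPM in the knockdowns (-0.30 ± 0.04, SE; adjusted p = 0.00808, and 0.0693 to 0.0750 without a knockdown library).

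**Figure D4:**
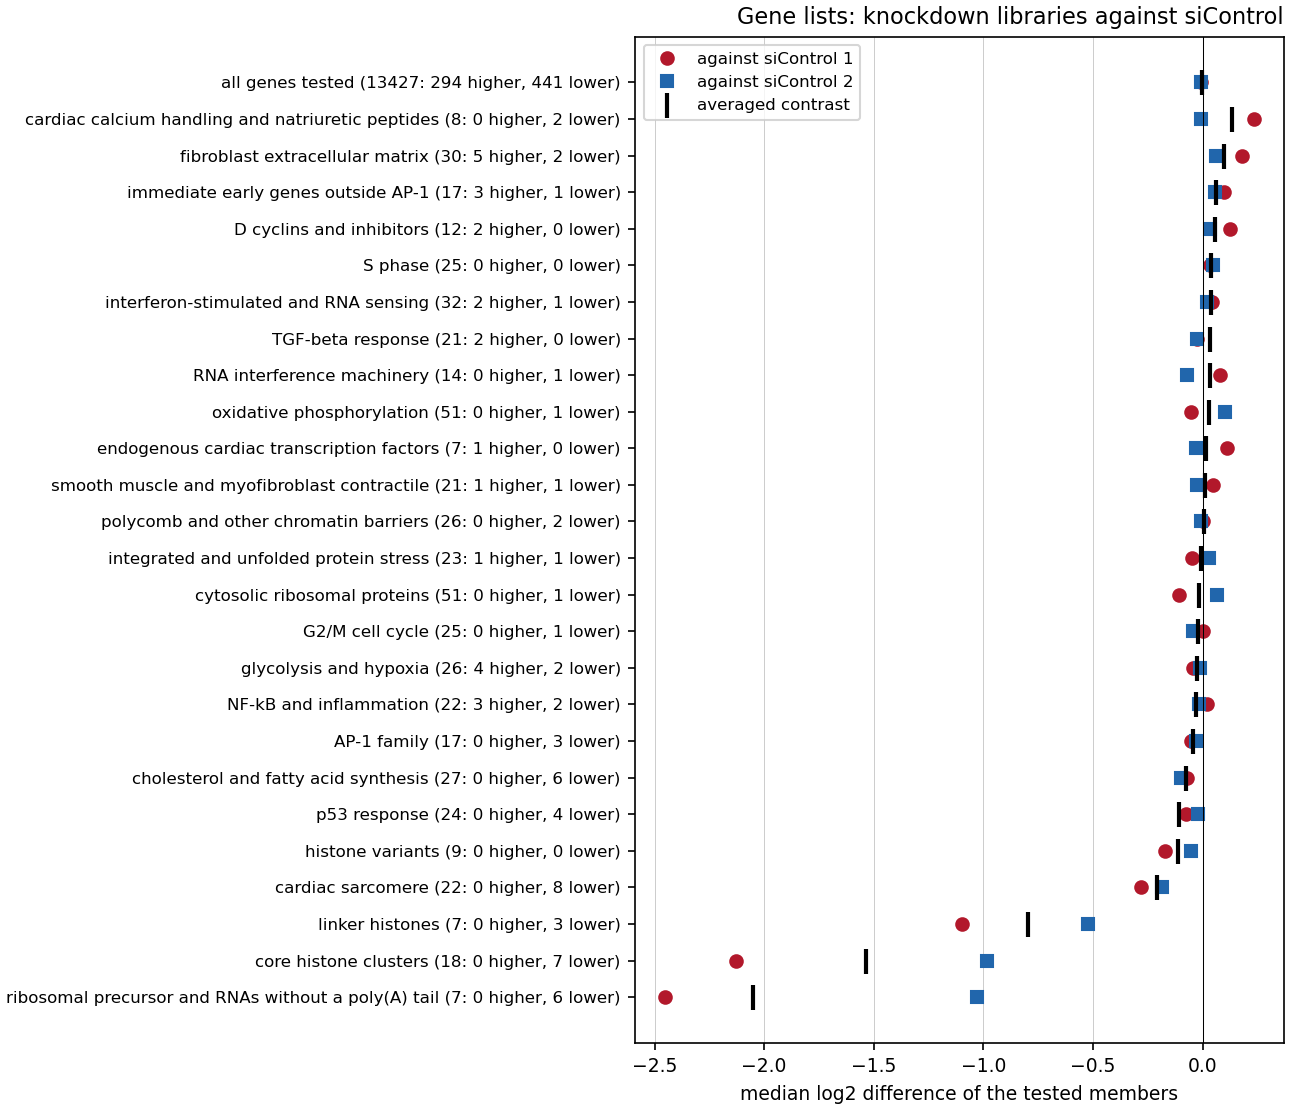
Median log2 difference of the tested members of each gene list (x axis) between the 4 knockdown libraries and siControl 1 (circles), siControl 2 (squares) and both in the averaged contrast (bars), with the number tested and called beside each list's name. Most lists lie near 0, where all genes lie, and the median differs between the siControl libraries for core histones (-2.13 and -0.98) and for RNAs without a poly(A) tail (-2.45 and -1.03).

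The number of genes apart from the knockdowns differed between the siControl libraries. Among 10167 genes with a mean of at least 5 CPM, the mean of the 4 knockdown libraries was at least 1.5-fold above siControl 1 for 98 genes and above siControl 2 for 7, and at least 1.5-fold below them for 41 and 34. It lay 1.5-fold above both for 4 genes, Rab27a, C3, Col8a1 and Dcn, and 1.5-fold below both for 22, which include Rmrp, Cdsn, Nrap, Rgs2, Hist1h1c, Casq2, Lmod2, Junb and H1f0. Of the genes named here, C3, Dcn, Junb and H1f0 did not meet the rule for a like change. Nor did the rest of the 22. Among these were Xrcc5 (-1.45 in siJunb and 0.08 in siH1f0), Golga7 (-1.30 and -0.02) and Rap1gds1 (-0.12 and -1.22). The siControl libraries were themselves 1.5-fold apart in 111 of the 10167 genes. Over all genes tested, the 4 knockdown libraries lay above both siControl libraries in 1327 (9.88%) and below both in 1255 (9.35%).

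Gene length ran along the difference between the control libraries. In 10 bins of the genes with at least 5 CPM by length, the median log2 difference of siControl 1 from siControl 2 went from 0.16 in the shortest genes (median 953 bases) to -0.25 in the longest (median 8102 bases). The 4 knockdown libraries minus siControl 1 went from -0.098 to 0.18, and minus siControl 2 from 0.060 to -0.067. In the averaged contrast the medians ran from -0.019 to 0.045, since the controls lay on either side of the knockdowns. The like-higher genes had a median length of 3693 bases and the like-lower genes of 2673 bases, beside 2886 bases over all genes tested.

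**Figure D5:**
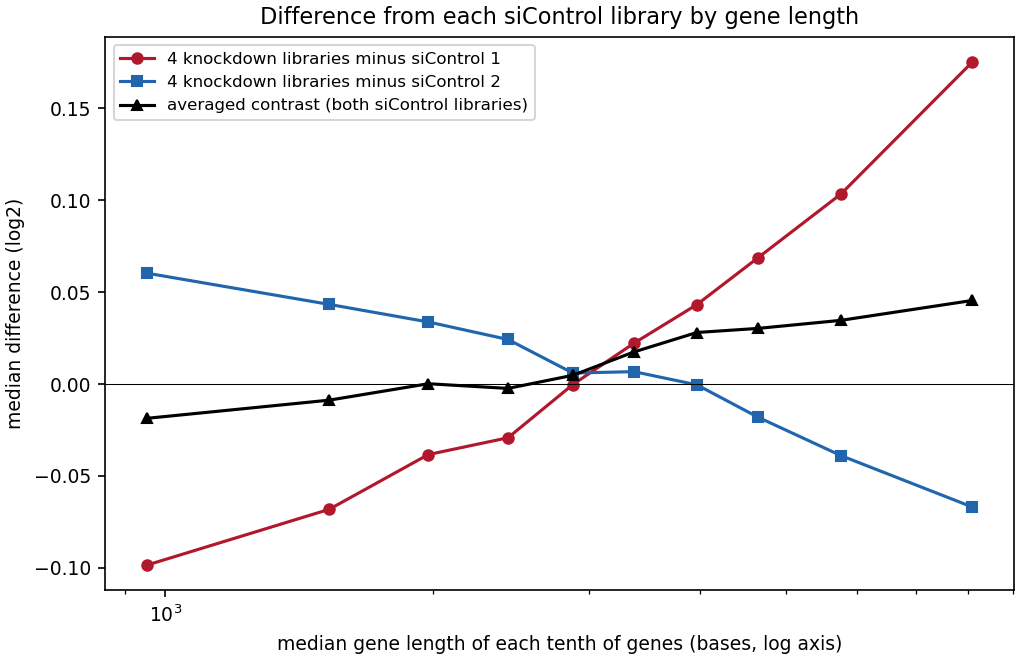
Median log2 difference (y axis) of the 4 knockdown libraries from siControl 1 (circles) and from siControl 2 (squares), and in the averaged contrast (triangles), in 10 length bins of 1016 or 1017 genes each, placed at their median length in bases (x axis, log scale). The lines against the siControl libraries slope in opposite directions, from -0.098 to 0.18 and from 0.060 to -0.067, and the averaged line runs from -0.019 to 0.045.

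When the trend with length was taken out of each library, 276 of the 279 like genes were still called, 119 higher and 157 lower. The averaged contrast then called 2273 genes, 1086 higher and 1187 lower. This setting was added after the data were seen. The fit with 1 side still called 1 gene.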

How the data were processed

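Poly(A) RNA was sequenced from 6 libraries, 2 each for siControl, siJunb and siH1f0, with groups and replicate numbers from the sample labels. The authors deposited raw read counts per gene, whole numbers that were not normalised, with a gene length column. The submitters' processing notes name HISAT2, Subread and featureCounts with the build mm10; their versions, the strand setting and the handling of multiply matching reads are not given here, because the sources used do not state them.

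The tests used edgeR 4.0.16 under R 4.3.3 (TMM, filterByExpr by group, quasi-likelihood F test, Benjamini-Hochberg adjusted p under 0.05 over all 13427 genes), which supplied every adjusted p unless another tool is named. The main design had 1 term for the side. The averaged contrast of the 3-group fit was listed as another design, and its use to choose the named genes was decided after the main design had called 1 gene. Named genes are the targets and induced factors, the 12 higher and 12 lower called genes of at least 5 CPM with the largest like change (symbols of the Gm and Rik kind left out), up to 3 called genes from each list in order of p, and 4 genes with unlike changes; further called members were named after their values were seen. A few genes that the rule names, and some list members, are not reported here. The members and the 34 gene lists were chosen with earlier results of these data known. An exact permutation of 2 against 4 libraries cannot go below p = 0.0667, so calls rest on the spread shared across genes. P-values measure the spread between these libraries, which may be technical. Coordinates, overlaps and upstream sequences come from RefSeq on GRCm38.p6, which matched 23591 of 24516 symbols. The scripts were tested on simulated counts with equal changes added in both knockdowns and the spread of the 3-group fit. There the averaged contrast called 170 genes, 19 of them falsely, and the fit with 1 side called 70, 0 of them falsely. The fit with 1 side recovered 0% of the 1.25-fold changes, 35.8% of the 1.5-fold and 69.7% of the 2-fold. The averaged contrast recovered 56.7%, 83.6% and 86.4%.

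Alternatives were RLE size factors, library totals only, no count filter, only genes averaging 5 CPM or more, limma-voom (limma 3.58.1), DESeq2 1.42.0, a block for the replicate number, and the removal of 1 library at a time, where the library that remains is taken to vary as the rest do.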

Additional observations from a re-analysis of the deposited data

Results flagged for a closer look

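The direct test of siH1f0 against siJunb, which leaves siControl out, called the 43 genes listed here among those that the naming rule gives (adjusted p up to 0.0470), and it also called other genes named above. Values below are the log2 level in siH1f0 minus that in siJunb.

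Among genes with a like change the rule itself limits the difference, so its size is given as a description only. SiJunb was the higher for Col8a1 (-0.31), Atp10d (-0.34), Mme (-0.38), Sfrp1 (-0.26), Carnmt1 (-0.22), Rgs2 (-0.23), Malat1 (-0.29) and Hmgcs1 (-0.21). SiH1f0 was the higher for Nrap (0.57) and Casq2 (0.33).

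Of the 43, H1f0 differed most, at -3.63, and Junb was at 1.64. Muscle genes lower in siJunb were Actc1 (2.30), Myl7 (1.77) and Cnn3 (0.25), with Acta2 at 0.54, and the relaxin receptor Rxfp1 was at 1.88. Gja1 was lower in siH1f0 (-1.57).

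Secreted, matrix and inflammatory genes higher in siJunb were Dcn (-1.03), Ltbp2 (-0.53), C3 (-2.03), Csf1 (-0.40), Stat2 (-0.31), Irf1 (-0.26) and Usp18 (-0.31), while Slpi was higher in siH1f0 (1.33). Of factors and cell cycle regulators, Nr4a1 (-0.42), Klf2 (-0.29), Zmat3 (-1.79), Cdkn1a (-0.57) and Ccnd1 (-1.49) were higher in siJunb, and Jund (0.29) and Ube2c (0.33) in siH1f0. Metabolic and other genes higher in siJunb were Ndufa4 (-0.72), Srebf2 (-0.41), Sqle (-0.36), Egln3 (-1.39), Pgam1 (-0.25), Slc7a5 (-0.15) and Tnrc6c (-0.18). Rpl4 (0.89), Vegfa (0.27) and Hmgb1 (0.29) were higher in siH1f0. With 2 libraries a group, the test rests on the spread shared across genes.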

How the results depend on the processing

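The fit with 1 side called 1 gene, and 7 with no count filter, 88 with DESeq2 and 0 to 1 with a library left out (0 without siControl 1, siControl 2 or siJunb 1, with 561, 1612 and 857 at an unadjusted p under 0.05). Of these, 7 and 86 had a like change with no filter and with DESeq2, and 0 to 1 with a library left out. In the 3-group fit, 735 were called and 279 with a like change; the numbers were 1910 and 677 with no filter, 2273 and 754 with the length trend out, and 110 to 4914 and 37 to 2367 with a library left out. The direct test of siH1f0 against siJunb called 3484 genes, and 1304 to 6435 with a library left out. The cause of these shifts was not tested. With library totals only, the split was 272 higher and 506 lower, against 294 and 441.

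With the replicate number as a block, the fit with 1 side called 0 genes (edgeR, 791 at an unadjusted p under 0.05; Cdsn had an adjusted p of 0.101), 0 with a like change, and the averaged contrast called 393 and 139. The deviations of same-numbered libraries correlated at 0.0477, -0.0412 and 0.0627 between the groups. Each group gave 1 deviation per gene, so this cannot settle whether the numbers paired the libraries.

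With a library left out, Gata4 ran from -0.0092 to 0.73 in the one-side fit and from -0.0096 to 0.73 on average, and Tbx5 from -0.042 to 0.41 and from -0.043 to 0.41, below 0 only without siControl 1 and highest without siControl 2. Zmat3 in the one-side fit ran from -0.47 to 0.085 and was above 0 without siH1f0 1 (0.068) and siH1f0 2 (0.085). With RLE factors the named genes called in the averaged contrast all kept their call; with library totals 3 and with a mean of at least 5 CPM 2 lost it, and with the block 12. Of 80 called list members, 22 were called in all 6 fits with a library left out, and the other 58 reached an adjusted p of up to 0.215. Each group had only 2 libraries, and the part of the distance between the siControl libraries in these results was not tested.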
